A study of Arabidopsis thaliana with 6 samples.

Results

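The comparison set roots of Arabidopsis thaliana (thale cress) exposed to ion Al, the dissolved form of aluminium, against roots of a control group. All plants were wild type of the ecotype Columbia in the vegetative stage, and each group held 2 RNA sequencing libraries. The 4 libraries came from a series of 6, whose other 2 libraries were of roots exposed to aluminium oxide nanoparticles (nAl2O3). The sources used here do not give dose, exposure time, medium or plant age. Members were all loci with an RPKM (the number of reads on a locus, divided by its length in kilobases and by the library's total) of at least 1 in at least 2 of the 6 libraries, which kept 19648 of the 24438 loci in the table. No label states that replicates are separate cultures or plants. The p-values therefore cover only the spread between libraries, which may be technical.

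Of the 19648 loci, 2418 (12.3%) were higher and 2028 (10.3%) were lower in ion Al roots than in control roots at a Benjamini-Hochberg adjusted p under 0.05 in limma. At least 2-fold changes on the tested scale were 1767 of the higher loci (8.99% of all) and 1459 of the lower (7.43%). The values tested were log2(RPKM + 1), on which a log2 difference is the ion Al mean minus the control mean, given with its standard error. "Rose" and "fell" are used of loci past this test. Counts of list members below are to be read against the shares of all loci, 12.3% higher and 10.3% lower. The median log2 difference of all loci tested was 0.06. With no test, the groups did not overlap at 6690 loci with ion Al above (34%) and at 5434 with ion Al below (27.7%). Library totals recovered from the RPKM values were 12318429 and 14252671 reads for ion Al, and 14489392 and 13687455 for control. The reads recovered on loci summed to 99.91% to 100.07% of these totals. The totals are thus of reads on loci and not of sequencing depth. Replicates stood at least 2-fold apart at 3.05% of loci between the ion Al libraries and at 9.05% between the control libraries. Between the nAl2O3 libraries, which share 1 estimate of the spread with the others in the fit, this was 0.855%. Loci of the organelle genomes took 0.141% and 0.102% of reads in ion Al libraries, against 0.0248% and 0.0156% in control libraries. Ribosomal RNA loci took 0.247% and 0.275% of reads in ion Al libraries, against 0.109% and 0.00395% in control libraries. The part of these shares in the results was not tested. The counts depended on single libraries. There were 1171 higher and 942 lower loci without ion Al replicate 1, 886 and 979 without ion Al replicate 2, 4314 and 3418 when control replicate 1 was left out, and 2546 and 2285 when control replicate 2 was. They were 1430 and 1324 without nAl2O3 replicate 1 and 1432 and 1325 without nAl2O3 replicate 2. Genes named below as risen or fallen kept their call in each of 17 other settings that tested them, unless a sentence says otherwise.

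The root label was checked against 11 short marker lists. Transcripts that mark leaves, such as RBCS1A and CAB3, were low, with summed RPKM over 6 markers of 12.4 and 15.5 in ion Al libraries, against 76.8 and 95.6 in control libraries. Of these 6, 4 were lower in ion Al roots. That count was 0 without ion Al replicate 1, 1 without ion Al replicate 2 and 2 without control replicate 2. Markers of seed storage and pollen were not in the table, and those of guard cells and flowers did not pass the filter. Among root markers, 2 of 3 xylem, 2 of 4 phloem and 2 of 4 epidermis members were lower, 1 of 4 meristem members was higher, and 0 of 4 ground tissue and 0 of 2 root cap members passed in either direction. XCP1, a cysteine protease of maturing xylem vessels, had 22.8 and 19.7 RPKM in ion Al libraries, against 88.8 and 82.4 in control libraries (log2 difference -1.96 ± 0.17, adjusted p = 0.000834). Without either ion Al library the phloem and epidermis counts were 0. Each was 1 without either nAl2O3 library, and the epidermis count was 1 without control replicate 1. The meristem count was 0 without ion Al replicate 2 and 3 without control replicate 2, and 1 ground tissue member was higher without either control library. Fewer cells of a type and less RNA per cell cannot be told apart in whole roots, and the part of cell makeup in the results below was not tested.

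Roots take up phosphate through a circuit of small RNAs and proteins. When phosphate is short, the transcription factor PHR1 binds a DNA element called P1BS and turns on genes that include the microRNAs miR399 and miR827. miR399 cleaves the messenger RNA of PHO2, an enzyme that marks phosphate exporters and transporters for destruction, and the non-coding RNAs IPS1 and AT4 hold miR399 off through a site it can bind and cannot cut. miR827 cleaves the messenger RNA of NLA, a ubiquitin ligase that removes phosphate transporters from the plasma membrane. Shortage of sulphur, of sugar or of folding capacity each has its own known set of responding genes, taken in turn after this circuit.

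The mature microRNA sequences of the circuit are shown because their precursors rose in ion Al roots. The decoys that rose there pair with mature miR399. Sequences are from RefSeq TAIR10.1, 5′ to 3′, and capitals in the microRNAs mark the seed, bases 2 to 8. miR399b and the 3′ arm of miR399c have the same sequence, and the seed GCCAAAG is shared by the members of the miR399 family in the table.
miR399b and miR399c-3p: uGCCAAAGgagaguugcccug
miR827: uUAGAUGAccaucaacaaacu
In the target sites, written as DNA, capitals mark bases that form Watson-Crick pairs with the miR399b sequence above. The IPS1 and AT4 sites pair 18 of 21 bases and carry 3 extra bases at the centre, where cleavage would fall. PHO2 held several sites, which pair 17 or 18 of 21 bases with none extra. The PHO2 site shown, at bases 902 to 922 of its transcript, pairs 18 of 21.
IPS1, bases 236 to 259: ttGGGCAACttcTaTCCTTTGGCA
AT4, bases 568 to 591: ttGGGCAACTtcgaTCCTTTGGCA
PHO2, bases 902 to 922: ttGGGCAAaTCTCCTTTGGCA

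Promoters are shown for 4 loci that rose and hold the P1BS letters, GNATATNC, in the 250 bases before the annotated start, with matches in capitals. For the microRNA loci the start is that of the annotated precursor. The motif reads the same on both strands.
MIR827, chr3:22122937-22123186, minus strand, matches at -96, -84 and -73: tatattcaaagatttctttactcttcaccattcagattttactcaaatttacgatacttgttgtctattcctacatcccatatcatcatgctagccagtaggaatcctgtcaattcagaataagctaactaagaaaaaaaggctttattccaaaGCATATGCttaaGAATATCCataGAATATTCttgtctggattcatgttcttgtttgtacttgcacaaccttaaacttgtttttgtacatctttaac
MIR399c, chr5:24962235-24962484, plus strand, match at -193: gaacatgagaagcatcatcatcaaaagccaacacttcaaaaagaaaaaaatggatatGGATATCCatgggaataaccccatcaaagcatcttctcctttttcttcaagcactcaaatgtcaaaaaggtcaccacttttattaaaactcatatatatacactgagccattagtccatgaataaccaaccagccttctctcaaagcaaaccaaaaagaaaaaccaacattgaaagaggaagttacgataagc
SPX3, chr2:18606160-18606409, plus strand, matches at -213 and -90: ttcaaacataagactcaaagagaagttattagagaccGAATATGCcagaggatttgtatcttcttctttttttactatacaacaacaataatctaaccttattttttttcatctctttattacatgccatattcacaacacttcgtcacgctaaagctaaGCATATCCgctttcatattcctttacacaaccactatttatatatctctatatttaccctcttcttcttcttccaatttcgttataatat
AT3G25240, chr3:9192243-9192492, plus strand, matches at -193 and -81: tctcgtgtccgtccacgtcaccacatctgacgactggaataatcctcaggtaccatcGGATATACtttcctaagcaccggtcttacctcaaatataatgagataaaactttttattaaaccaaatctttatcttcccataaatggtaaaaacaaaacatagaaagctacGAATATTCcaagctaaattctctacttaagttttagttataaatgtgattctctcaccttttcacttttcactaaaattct
In a window from 250 bases before to 50 bases after the start, P1BS letters stood in 11 of 22 promoters of the phosphate list (50%) and in 6.24% of all 19484 promoters searched. They stood in 24% of the 100 loci with the largest rises and in 8% of the 100 with the largest falls. A match is a description of these letters and not a site of binding.

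The precursors of both microRNAs were read in ion Al libraries and in neither control library. MIR827 had 61.7 and 58.02 RPKM in ion Al libraries (79 and 86 reads), against 0 and 0 in control libraries, which with a floor of 3 reads over the group is at least 58.3-fold higher (log2 difference 5.93 ± 0.19, adjusted p = 3.65e-05). MIR399c, at 49.1 and 48.0 RPKM in ion Al libraries against 0 and 0, was at least 52.0-fold higher. MIR399b, at 19.8 and 17.7 RPKM in ion Al libraries against 0 and 0, was at least 23.7-fold higher. These are long RNA libraries, so the values are of precursor transcripts and not of mature microRNAs. Over all microRNA precursors, 95 were in the table and 49 were tested, of which 7 were higher and 2 lower, with a median log2 difference of 0.63. Among all loci 12.3% were higher and 10.3% lower. MIR399a, MIR399d and MIR399f held at most 1 read in any of the 4 libraries.

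Transcripts that pair with miR399 and miR827 did not move one way. AT4 reached 1328 and 2450 RPKM in ion Al libraries, against 23.8 and 5.57 in control libraries, a 129-fold difference. IPS1, the other decoy, reached 634 and 504 RPKM in ion Al libraries, against 0.637 and 0.809 in control libraries (784-fold). PHO2, the cleaved target of miR399, had 83.6 and 134 RPKM in ion Al libraries, against 144 and 149 in control libraries. Both ion Al values lay below both control values, and the difference did not pass (log2 difference -0.47 ± 0.25, adjusted p = 0.222). NLA, the target of miR827, was chosen after its values were seen. It had 11.1 and 17.3 RPKM in ion Al libraries, against 55.9 and 53.8 in control libraries, 3.8 times lower (log2 difference -1.91 ± 0.23, adjusted p = 0.00235). Sites for miR827 were not searched in any transcript. AT1G63010, an SPX domain transporter of the vacuole, is given for its level only and not as a target. It had 14.4 and 21.5 RPKM in ion Al libraries, against 14.4 and 12.7, and did not pass (adjusted p = 0.29). PHR1 itself had 40.1 and 35.7 RPKM in ion Al libraries, against 45.5 and 66.7 in control libraries, and did not pass (adjusted p = 0.134).

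**Figure D1:**
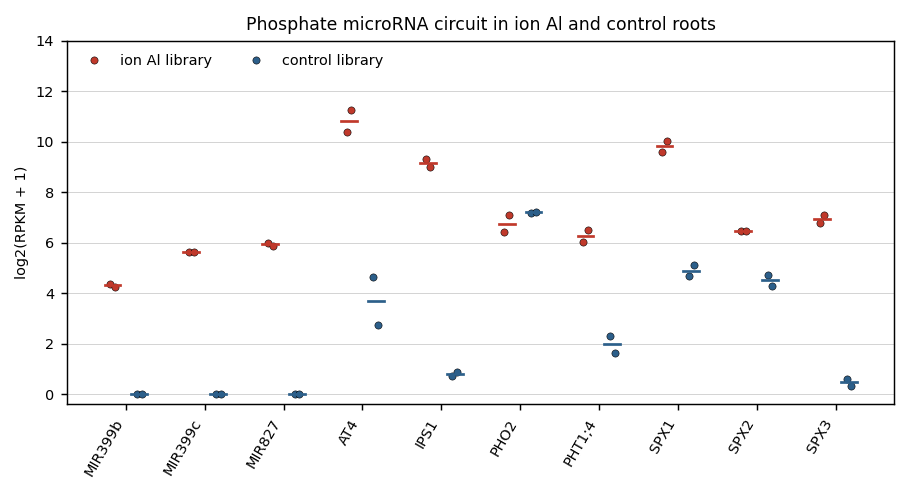
Levels on the log2(RPKM + 1) axis of 10 transcripts of the phosphate circuit, each point 1 library and each bar a group mean, with ion Al left of control. The 3 microRNA precursors stood at 0 in both control libraries, the decoys AT4 and IPS1 and the transcripts PHT1;4, SPX1, SPX2 and SPX3 stood higher in ion Al libraries, and the ion Al points of PHO2 lay just below its control points.

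Downstream members of the phosphate list covered uptake, sensing, release and membrane lipids. Of 22 tested members, 21 were higher, 0 were lower, and PHO2 did not pass, with a median log2 difference of 3.69. The transporter PHT1;4 had 64.8 and 89.0 RPKM in ion Al libraries, against 3.96 and 2.08 in control libraries (25.5-fold). The purple acid phosphatase PAP17 had 111 and 133 RPKM, against 2.31 and 2.45 (51.6-fold). Genes that replace phospholipids with phosphate-free lipids rose together. MGD3, a galactolipid synthase, had 65.1 and 95.2 RPKM in ion Al libraries, against 0.0422 and 0.402 in control libraries. SQD2, which makes sulpholipid, had 133 and 152 RPKM, against 9.74 and 10.98 (13.9-fold). PLDZETA2, a phospholipase, had 14.04 and 18.5 RPKM, against 0.670 and 0.438 (29.5-fold). The phosphate sensor gene SPX2 rose least among those named here, with 87.0 and 88.2 RPKM, against 25.5 and 18.6 (3.96-fold). Members with P1BS letters were 11, of which 11 were higher with a median log2 difference of 3.74, and members without were 11, of which 10 were higher with a median of 2.09. Strand and the handling of reads that match several loci are not given, so levels of near-identical copies, such as IPS1 and AT4 where they share sequence, and of overlapping genes are uncertain.

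The sulphur list parted uptake at the root surface from the rest. Of 16 tested members 14 were higher and 2 lower, with a median log2 difference of 2.51. SULTR1;1, a high-affinity sulphate transporter of the root surface, was listed at 0 and 0 RPKM in ion Al libraries, against 14.9 and 9.80 in control libraries, at least 254-fold lower. SULTR2;1, a low-affinity transporter of the vascular tissue, had 138 and 131 RPKM in ion Al libraries, against 2.91 and 4.99 in control libraries (34.3-fold higher). The 2 transporters thus moved in opposite directions in the same libraries.

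Genes that are switched on when sugar runs short were lower in ion Al roots. Plants short of sugar break down branched-chain amino acids, proline and stored carbohydrate, and the genes of that breakdown are used as markers of carbon starvation. Of 13 tested members 11 were lower and 1 higher, with a median log2 difference of -2.01, against 10.3% lower among all loci, and the lower count was 5 without ion Al replicate 2. SEN1, a gene induced by darkness and senescence, had 31.6 and 12.6 RPKM in ion Al libraries, against 401 and 568 in control libraries (22.5 times lower, log2 difference -4.51 ± 0.50). DIN10, of the raffinose synthase family, had 148 and 63.7 RPKM in ion Al libraries, against 1158 and 1340.1 in control libraries (12.1 times lower). The groups did not overlap at either gene. MCCA and IVD encode enzymes of leucine breakdown in mitochondria. MCCA had 23.58 and 14.7 RPKM in ion Al libraries, against 131 and 198 in control libraries (8.66 times lower). IVD had 18.9 and 15.6 RPKM, against 87.6 and 126 (6.20 times lower). GDH3, a glutamate dehydrogenase, was the member that rose, with 7.36 and 13.9 RPKM in ion Al libraries, against 2.19 and 2.22 in control libraries (4.92-fold). DIN2, a beta-glucosidase, did not pass, with 12.8 and 5.89 RPKM in ion Al libraries, against 3.47 and 3.37 in control libraries (adjusted p = 0.109). P1BS letters stood in 5 of the 13 promoters (38.5%), of which 3 were of lower and 1 of a higher member.

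Sugar transporters were more often lower than higher. Of 14 tested members 7 were lower and 2 higher, with a median log2 difference of -1.27. SWEET12, which exports sucrose from phloem parenchyma, had 0.128 and 0.276 RPKM in ion Al libraries, against 17.5 and 9.42 in control libraries (65.6 times lower, log2 difference -3.53 ± 0.44). The hexose importers STP1 and STP4 were 6.19 and 4.998 times lower. STP1 had 46.5 and 35.9 RPKM in ion Al libraries, against 328 and 172 in control libraries. SWEET16, a sugar carrier of the vacuole membrane, was 3.65 times lower and SWEET2 was 2.60 times lower. The sucrose exporters SWEET13 and SWEET14 went the other way. SWEET13 had 10.2 and 14.01 RPKM in ion Al libraries, against 2.15 and 1.28 in control libraries (7.09-fold), and SWEET14 had 1.97 and 5.09 RPKM, against 0.216 and 0.0570 (26.3-fold).

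Trehalose 6-phosphate is a signal of sucrose supply, made by TPS and removed by TPP enzymes. Among 13 tested members 6 were lower and 2 higher, with a median log2 difference of -0.48. Class II products resemble the synthase and lack its known activity, and 4 of the 6 class II genes of the list, TPS8, TPS9, TPS10 and TPS11, were 6.24, 2.90, 4.25 and 5.16 times lower. The other two did not pass. TPS5 had 13.9 and 16.2 RPKM in ion Al libraries, against 11.4 and 12.9 in control libraries (adjusted p = 0.316), and TPS7 had 43.0 and 39.7 RPKM, against 42.9 and 51.4 (adjusted p = 0.496). ATTPS6, a class II gene outside the list, had 18.3 and 11.9 RPKM in ion Al libraries, against 23.7 and 47.2 in control libraries (adjusted p = 0.0577). TPS8 had 38.9 and 29.5 RPKM in ion Al libraries, against 166 and 258 in control libraries. Phosphatase genes went both ways. TPPB was lower, with 19.4 and 21.9 RPKM in ion Al libraries, against 31.4 and 34.5 in control libraries (log2 difference -0.65 ± 0.17). TPPE was lower, with 8.64 and 19.6 RPKM, against 30.15 and 35.5 (-1.26 ± 0.35). The calls of TPPB and TPPE were not followed in the other settings. The lower count of the list was 4 to 6 when any library was left out. The phosphatase genes TPPD and TPPI rose. TPPD had 34.1 and 34.2 RPKM in ion Al libraries, against 4.92 and 3.75 in control libraries (7.84-fold), and TPPI was 5.30-fold higher.

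**Figure D2:**
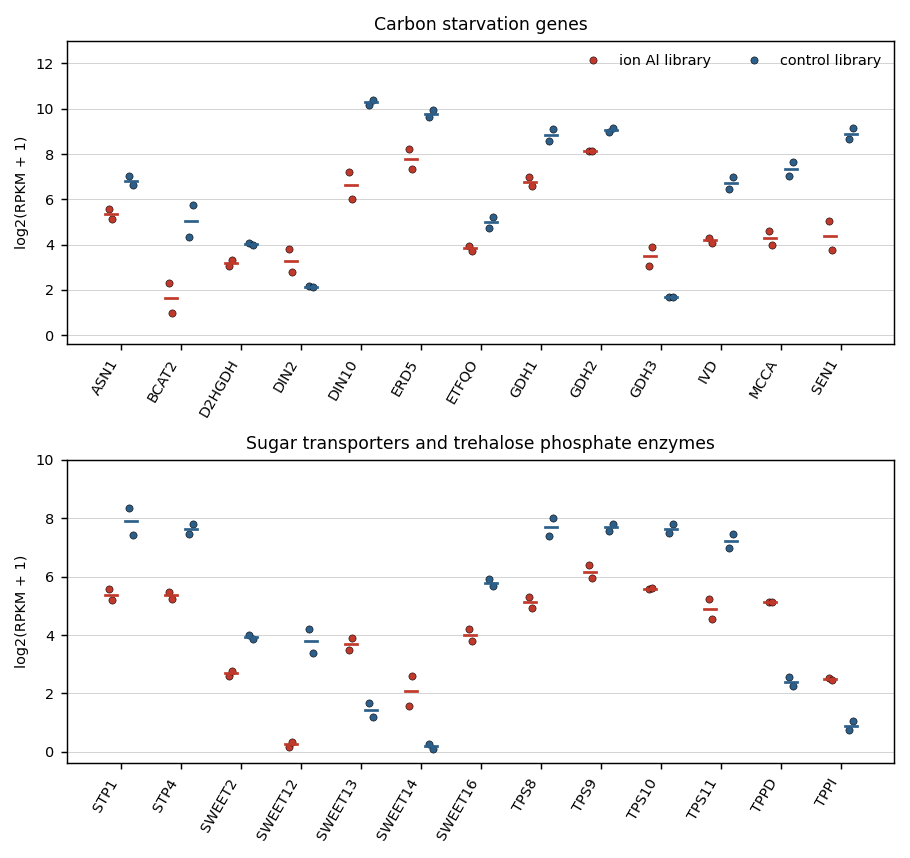
Levels on the log2(RPKM + 1) axis, each point 1 library and each bar a group mean, with ion Al left of control, for 13 carbon starvation genes above and for 13 sugar transporter and trehalose phosphate genes below. The ion Al points lay below the control points except at DIN2, GDH3, SWEET13, SWEET14, TPPD and TPPI.

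The organic acid list was split by step. Malate and citrate bind aluminium outside the root, and their carbon enters through phosphoenolpyruvate carboxylase. Of 19 tested members 5 were higher and 4 lower, with a median log2 difference of 0.13. The counts were 4 and 2 without ion Al replicate 1 or either nAl2O3 library, 3 and 1 without ion Al replicate 2, and 9 and 4 without control replicate 1. The carboxylase PPC2 had 107 and 113 RPKM in ion Al libraries, against 27.8 and 24.6 in control libraries (4.20-fold, log2 difference 2.03 ± 0.17). The kinases that activate the carboxylase rose with it. PPCK1 had 289.8 and 307 RPKM in ion Al libraries, against 61.6 and 36.5 in control libraries (6.06-fold), and PPCK2 was 5.52-fold higher. MLS, malate synthase of the glyoxylate cycle, had 0.462 and 0.399 RPKM in ion Al libraries, against 2.53 and 3.82 in control libraries (7.37 times lower). TDT, which carries malate into the vacuole, had 12.2 and 10.7 RPKM in ion Al libraries, against 116 and 47.5 in control libraries (7.27 times lower), and its call was lost without ion Al replicate 2 (log2 difference -2.51).

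Chaperones of the endoplasmic reticulum, where secreted proteins fold, were higher. Of 23 tested members 13 were higher and 1 lower, with a median log2 difference of 0.89. The counts were 5 and 0 without ion Al replicate 1, 6 and 1 without ion Al replicate 2, 13 and 2 with control replicate 1 left out, and 7 and 0 without either nAl2O3 library. BIP3, the stress-inducible copy of the reticulum's HSP70, had 7.60 and 6.499 RPKM in ion Al libraries, against 0.0326 and 0.173 in control libraries (69.6-fold, log2 difference 2.87 ± 0.22). ERDJ3A, a DnaJ partner of BIP, was 7.19-fold higher. The disulphide-forming enzymes PDIL1-2 and ERO1 were 3.595-fold and 3.35-fold higher. PDIL1-2 had 92.1 and 86.4 RPKM in ion Al libraries, against 24.3 and 25.3 in control libraries. IRE1A, a sensor of misfolded protein, was the lower member, with 15.7 and 19.7 RPKM in ion Al libraries, against 34.2 and 31.8 in control libraries (log2 difference -0.87 ± 0.18), and its call was lost without ion Al replicate 1 (-0.71) or either nAl2O3 library (-0.87).

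The BIP3 promoter is shown because it carries letters that stood in 12 of the 23 promoters of this list. Capitals mark ACGTGNC on either strand, the core of the element ABRE, which bZIP factors bind. The first 2 matches overlap.
BIP3, chr1:2931851-2932100, minus strand, matches at -178, -175 and -97: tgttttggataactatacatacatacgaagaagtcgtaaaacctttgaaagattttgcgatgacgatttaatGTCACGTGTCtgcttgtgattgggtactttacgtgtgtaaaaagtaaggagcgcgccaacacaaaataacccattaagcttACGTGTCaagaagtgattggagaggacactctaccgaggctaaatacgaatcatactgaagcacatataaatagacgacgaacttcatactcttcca
That share was 52.2%, against 11.3% of all promoters, 13.6% of the phosphate list, 12.5% of the sulphur list and 23.1% of the carbon starvation list, and no test was made. The overlapping G-box, CACGTG, stood in 10 of 23 (43.5%), against 8.56% of all promoters. Of the 12 members with the first motif 7 were higher, with a median log2 difference of 0.98, and of the 11 without it 6 were higher and 1 lower, with a median of 0.74.

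Genes that respond to impaired mitochondria also rose. Of 14 tested members 9 were higher and 0 lower, with a median log2 difference of 1.23, and 1 was lower without control replicate 1. BCS1, an ATPase of the outer mitochondrial membrane, had 23.8 and 26.8 RPKM in ion Al libraries, against 3.22 and 2.91 in control libraries (8.28-fold). AOX1A, the alternative oxidase that bypasses the respiratory chain, had 11.1 and 12.7 RPKM in ion Al libraries, against 3.53 and 2.21 (4.15-fold). GSTU24, a glutathione transferase, was 12.1-fold higher and HSP23.5, a small mitochondrial heat shock protein, was 11.3-fold higher. The carrier DIC3 had 3.44 and 3.53 RPKM in ion Al libraries, against 0.0681 and 0 in control libraries.

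The low oxygen list was mixed in its regulators. Of 16 tested members 6 were higher and 1 lower, with a median log2 difference of 0.89, and 3 were higher and 2 lower without ion Al replicate 2. HRE1 and HRE2 are related ethylene response factors of the low oxygen response, and they moved in opposite directions. HRE2 had 6.77 and 7.80 RPKM in ion Al libraries, against 0.404 and 0.107 in control libraries (28.2-fold higher, log2 difference 2.73 ± 0.23). HRE1 had 44.5 and 45.2 RPKM in ion Al libraries, against 193 and 298 in control libraries (5.44 times lower, log2 difference -2.39 ± 0.25). Alcohol dehydrogenase ADH1, the end of fermentation, had 60.2 and 144 RPKM in ion Al libraries, against 25.4 and 16.7 in control libraries (4.96-fold).

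Ethylene and cytokinin lists held more lower than higher members. Among 23 ethylene members 2 were higher (8.7%) and 5 lower (21.7%), with a median log2 difference of -0.26. Among all loci 12.3% were higher and 10.3% lower. AT1G12010, an ethylene-forming ACC oxidase, had 38.6 and 31.0 RPKM in ion Al libraries, against 172 and 156 in control libraries (4.75 times lower). EBF2, which removes the ethylene factor EIN3, had 32.6 and 35.2 RPKM in ion Al libraries, against 90.7 and 91.6 (2.68 times lower), and ERF2 was 3.29-fold higher. The counts were 1 and 2 without either ion Al library, 4 and 5 with control replicate 1 left out, and 1 and 4 without either nAl2O3 library. Among 22 cytokinin members 2 were higher (9.09%) and 5 lower (22.7%), with a median of -0.41. Those counts were 2 and 2 without ion Al replicate 1, and 1 and 4 without ion Al replicate 2, control replicate 2 or either nAl2O3 library. CYP735A1, which makes trans-zeatin forms, had 1.36 and 2.66 RPKM in ion Al libraries, against 10.04 and 7.90 in control libraries (4.38 times lower). CKX4, which degrades cytokinin, had 2.95 and 4.71 RPKM, against 24.4 and 14.3 (5.0 times lower).

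Strigolactones are root signals made from carotenoids, and 3 genes that make them rose. Of 8 tested members 4 were higher and 2 lower, with a median log2 difference of 0.59, and 0 were lower without ion Al replicate 1 or either nAl2O3 library and 1 without ion Al replicate 2. CCD8, MAX1 and LBO are enzymes of the pathway. D27 and CCD7, enzymes of its earlier steps, were below the filter. The lower members of the list were signalling genes and not genes of synthesis, and signalling genes went both ways. SMXL8, a signalling gene, was higher, with 3.61 and 4.78 RPKM in ion Al libraries, against 1.95 and 1.64 in control libraries (log2 difference 0.89 ± 0.22). The call of SMXL8 was not followed in the other settings. The higher count of the list was 3 or 4 when any library was left out. CCD8 had 9.33 and 10.8 RPKM in ion Al libraries, against 2.97 and 2.64 in control libraries (3.599-fold). MAX1 had 33.7 and 46.1 RPKM, against 16.1 and 16.2 (2.50-fold). LBO had 32.2 and 41.1 RPKM, against 7.76 and 7.78 (4.76-fold). Of 19 gibberellin members 2 were higher (10.5%) and 1 lower (5.26%), with a median of 0.21. Both shares lay below those of all loci, 12.3% and 10.3%. Those counts were 1 and 0 without ion Al replicate 1, 1 and 1 without ion Al replicate 2, 7 and 1 with control replicate 1 left out, and 2 and 3 with control replicate 2 left out.

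Among pathogenesis-related proteins, 7 of 16 listed members were tested. PR1, BGL2 and PDF1.1 were below the filter, and the other 6, among them PR5 and PDF1.2, had no row in the table used. Of the 7 tested, 5 were higher and 2 lower, with a median log2 difference of 1.93, and 1 was lower without ion Al replicate 2. TI1, a defensin-like trypsin inhibitor, had 36.0 and 62.5 RPKM in ion Al libraries, against 1.27 and 0.149 in control libraries (69.5-fold, log2 difference 4.91 ± 0.45). Osmotin OSM34 had 366 and 606 RPKM in ion Al libraries, against 47.0 and 100.8 in control libraries (6.76-fold). The basic chitinase HCHIB had 207 and 384 RPKM, against 40.9 and 50.6 (6.63-fold). PRX71, a peroxidase, was 5.13 times lower.

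Indole compounds for defence start from tryptophan. Of 10 camalexin members 6 were higher and 0 lower, with a median log2 difference of 1.13. The higher count was 2 without ion Al replicate 2, and 1 member was lower without either control library. CYP79B2, which turns tryptophan into its oxime, had 102 and 133 RPKM in ion Al libraries, against 34.6 and 17.5 in control libraries (4.50-fold), and its call was lost without ion Al replicate 2 (log2 difference 2.00). Its relative CYP79B3 did not pass (log2 difference -0.72 ± 0.21, adjusted p = 0.0547). CYP79B3 had 52.3 and 68.3 RPKM in ion Al libraries, below the 110.6 and 88.3 in control libraries. PAD3, FOX1 and WRKY33 did not pass either, and CYP71A13 was below the filter. The regulator NAC042 had 10.2 and 11.6 RPKM in ion Al libraries, against 0.548 and 1.33 (11.9-fold). CYP82C2, an oxidase of a related cyanogenic branch, had 1.70 and 3.48 RPKM in ion Al libraries, against 0 and 0 in control libraries, at least 52.3-fold higher. IGMT1, which methylates indole glucosinolates, fell. It had 2.05 and 1.98 RPKM in ion Al libraries, against 132 and 103 in control libraries (58.8 times lower, log2 difference -5.29 ± 0.19). Of 4 flavonoid members tested 0 passed, with a median of 1.04, and 1 was higher without ion Al replicate 1. Of 14 triterpene cluster members 1 was higher and 2 lower, with a median of -0.22. Those counts were 1 and 1 without ion Al replicate 1, 0 and 1 without ion Al replicate 2 or either nAl2O3 library, 3 and 2 with control replicate 1 left out, and 0 and 3 with control replicate 2 left out.

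Among transcription factor families, WRKY genes were split, and MYB genes were called higher more often than lower. Of 58 WRKY members 15 were higher (25.9%) and 14 lower (24.1%), with a median log2 difference of -0.05. Among all loci 12.3% were higher and 10.3% lower. WRKY62 had 97.2 and 79.9 RPKM in ion Al libraries, against 1.34 and 0.374 in control libraries (100.7-fold, log2 difference 5.63 ± 0.30). Its close relative WRKY38 had 22.9 and 36.2 RPKM, against 0.611 and 0.432 (57.3-fold). WRKY70, a regulator of the salicylate response, was 12.5-fold higher and WRKY51 was 7.15-fold higher. WRKY30 went down, with 1.70 and 0.381 RPKM in ion Al libraries, against 11.3 and 13.1 in control libraries (12.3 times lower). The lower count was 4 without ion Al replicate 1, 6 without ion Al replicate 2 (9 higher) and 8 without either nAl2O3 library.

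Of 71 MYB members 25 were higher (35.2%) and 4 lower (5.63%), with a median log2 difference of 0.32. Among all loci 12.3% were higher and 10.3% lower. MYB4, a repressor of phenylpropanoid genes, had 60.9 and 98.4 RPKM in ion Al libraries, against 14.5 and 14.3 in control libraries (5.64-fold). MYB41, MYB53 and MYB107, which promote suberin, were 9.70-fold, 3.99-fold and 5.83-fold higher, and MYB41 lost its call without ion Al replicate 2 (log2 difference 1.75). MYB92 and MYB93, which are also known from suberin, did not pass. MYB92 had 13.8 and 20.7 RPKM in ion Al libraries, against 26.5 and 39.4 in control libraries (log2 difference -0.89 ± 0.27, adjusted p = 0.0536), with both ion Al values below both control values, and it passed as lower after either other scaling (-0.96). MYB93 had 24.2 and 39.0 RPKM in ion Al libraries, against 15.3 and 28.4 in control libraries (adjusted p = 0.298). MYB51, which promotes indole glucosinolates, had 9.87 and 15.1 RPKM in ion Al libraries, against 34.9 and 47.0 in control libraries (3.21 times lower). MYB34, another regulator of indole glucosinolates, went the other way, with 74.5 and 105 RPKM in ion Al libraries, against 31.4 and 17.8 in control libraries (3.67-fold), and its call was lost without ion Al replicate 2 (log2 difference 1.62). The MYB counts were 16 and 1 without ion Al replicate 1, 9 and 3 without ion Al replicate 2, 25 and 7 with control replicate 1 left out, and 15 and 2 without either nAl2O3 library. Of 59 NAC members 11 were higher (18.6%) and 8 lower (13.6%), with a median of 0.11. NAC047 was 6.11-fold higher and NAC080 was 5.15 times lower. The NAC counts were 5 and 4 without ion Al replicate 1, 4 and 6 without ion Al replicate 2, and 7 and 5 without either nAl2O3 library. Of 30 ERF and DREB members 9 were higher (30%) and 5 lower (16.7%), with a median of 0.41. Those counts were 5 and 3 without either ion Al library and 14 and 5 without control replicate 1. The related factors CRF8 and CRF6 parted, CRF8 being 3.33-fold higher and CRF6 2.97 times lower.

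Calcium signalling families were taken list by list. Of 7 calmodulin-like members 4 were higher and 0 lower, with a median log2 difference of 0.94. The higher count was 2 without either ion Al library, and 1 member was lower without control replicate 2. CML37 had 8.52 and 7.72 RPKM in ion Al libraries, against 1.05 and 0.185 in control libraries (12.9-fold), and CML41 was 11.03-fold higher. Kinases of the CPK and CIPK families were listed together. Of these 40 kinases 5 were higher (12.5%) and 10 lower (25%), with a median of -0.28. The lower members were mostly CIPK genes, and the higher members came from both families. CPK22 had 17.2 and 21.2 RPKM in ion Al libraries, against 0.719 and 0.507 in control libraries (31.4-fold). CIPK16 had 1.54 and 1.33 RPKM in ion Al libraries, against 10.6 and 9.42 (7.01 times lower). The kinase counts were 4 and 5 without ion Al replicate 1, 3 and 3 without ion Al replicate 2, and 4 and 17 without control replicate 1. Of 16 cysteine-rich receptor kinases 0 were higher and 5 lower, with a median of -0.21, and CRK29 was 2.59 times lower. The lower count was 1 without ion Al replicate 1, 3 without ion Al replicate 2 and 2 without either nAl2O3 library.

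Cell wall families held both directions. Laccases polymerise lignin, and of 12 tested 3 were higher and 3 lower, with a median log2 difference of 0.52. LAC11 and LAC17, which act in lignin formation, were lower. LAC11 had 1.38 and 1.59 RPKM in ion Al libraries, against 11.8 and 9.09 in control libraries (7.01 times lower), LAC17 was 4.37 times lower and LAC2 was 2.95 times lower. LAC5 had 23.9 and 33.0 RPKM in ion Al libraries, against 5.96 and 6.601 in control libraries (4.59-fold higher), LAC8 was 3.83-fold higher and LAC13 was 3.37-fold higher. The 3 xylem markers had summed RPKM of 46.0 and 41.4 in ion Al libraries, against 158 and 139.8 in control libraries, and their part in the laccase values was not tested. The higher count was 5 without control replicate 1.

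Fasciclin-like and arabinogalactan proteins, glycoproteins of the cell surface, were higher in 16 of 39 cases and lower in 3, with a median log2 difference of 1.09. This rested partly on control replicate 2, in which the summed RPKM was 1156, against 3247 in control replicate 1 and 4583 and 4497 in the ion Al libraries. The higher count was 4 without either ion Al library and 28 without control replicate 1, and the lower count was 1 without ion Al replicate 2 and 7 without control replicate 2. AGP25 had 78.7 and 75.4 RPKM in ion Al libraries, against 17.2 and 9.24 in control libraries (5.78-fold). FLA10 had 22.8 and 18.2 RPKM, against 3.63 and 2.02 (7.13-fold). FLA13 had 3.20 and 0.307 RPKM in ion Al libraries, against 19.5 and 13.2 (9.97 times lower).

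Enzymes that trim pectin were near the background. Of 51 pectin methylesterases and inhibitors 8 were higher and 3 lower, with a median log2 difference of 0.14. UNE11, of the inhibitor family, was 6.06-fold higher. The counts were 3 and 1 without ion Al replicate 1, 2 and 0 without ion Al replicate 2, 15 and 3 with control replicate 1 left out, 5 and 12 with control replicate 2 left out, and 5 and 1 without either nAl2O3 library. Of 53 pectin lyases and polygalacturonases 8 were higher and 7 lower, with a median of 0.05, which was -0.04 under quantile normalization. AT5G14650, a polygalacturonase, had 1.73 and 1.31 RPKM in ion Al libraries, against 17.5 and 24.9 in control libraries (14.01 times lower), and PGIP2, an inhibitor of such enzymes, was 10.9-fold higher. Those counts were 4 and 4 without either ion Al library, and 13 were lower without control replicate 2. Of 21 tubulins and actins 5 were higher and 2 lower, with a median of 0.28. Their counts were 1 and 1 without either ion Al library and 9 and 3 without control replicate 1.

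Large enzyme and transporter families were described by their counts and extremes. Of 128 cytochrome P450 members 25 were higher (19.5%) and 30 lower (23.4%), with a median log2 difference of -0.14. Among all loci 12.3% were higher and 10.3% lower. CYP71B2 had 1.01 and 0.665 RPKM in ion Al libraries, against 29.0 and 15.4 in control libraries (27.2 times lower), and CYP702A3 was 31.6-fold higher. CYP86B1, which makes long-chain suberin monomers, was 3.83-fold higher. The P450 counts were 20 and 19 without ion Al replicate 1 and 9 and 19 without ion Al replicate 2. Of 39 UDP-glycosyltransferases 9 were higher and 6 lower, with a median of 0.39, and UGT73B2 had 14.01 and 14.4 RPKM in ion Al libraries, against 0.756 and 1.04 (15.9-fold). Those counts were 6 and 3 without ion Al replicate 1 or either nAl2O3 library, and 4 and 2 without ion Al replicate 2. Of 84 ABC transporters 18 were higher (21.4%) and 4 lower (4.76%), with a median of 0.22. ABCG16 was 11.8-fold higher, ABCC6 was 6.99-fold higher and ABCG6, a transporter for suberin, was 4.42-fold higher. The ABC counts were 12 and 1 without ion Al replicate 1, 5 and 1 without ion Al replicate 2, 20 and 10 with control replicate 1 left out, and 10 and 2 without either nAl2O3 library. Of 16 proton pumps 1 was higher and 0 lower, with a median of -0.04. Those counts were 0 and 0 without either ion Al library or either nAl2O3 library, 2 and 2 with control replicate 1 left out, and 0 and 2 with control replicate 2 left out.

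The machinery of growth depended on which control library was kept. Histones package new DNA. The histone list was drawn from annotation and is not of histones alone. It holds, for example, the transcription factor LEC1, which had no row. Tested members may likewise include genes that are not histones. Of 44 members tested 9 were higher (20.5%) and 0 lower, with a median log2 difference of 0.89. Their summed RPKM was 9543 and 7449 in ion Al libraries, against 6643 in control replicate 1 and 3552 in control replicate 2. The higher count was 30 without control replicate 1 (1 lower), 2 without ion Al replicate 1, 4 without ion Al replicate 2 and 5 without either nAl2O3 library. HIS1-3, a linker histone that stress induces, had 81.3 and 75.8 RPKM in ion Al libraries, against 3.86 and 8.74 in control libraries (12.6-fold). Of 56 numbered ribosomal proteins 4 were higher and 1 lower, with a median of 0.62. Those counts were 29 and 2 with control replicate 1 left out, 9 and 3 with control replicate 2 left out, 0 and 0 without either ion Al library, and 1 and 0 without either nAl2O3 library. Of 38 proteasome members 3 were higher (7.89%, against 12.3% of all loci) and 0 lower, with a median of 0.35. The higher count was 12 without control replicate 1 (2 lower), 6 without control replicate 2, and 0 without either ion Al library or either nAl2O3 library.

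The circadian clock sets daily rhythms of expression. Of 16 clock members 0 were higher and 6 lower, with a median log2 difference of -0.68. The lower count was 2 without ion Al replicate 2, 10 without control replicate 1 and 3 without either nAl2O3 library, and 1 member was higher without control replicate 2. RVE1, a morning factor, had 5.03 and 4.58 RPKM in ion Al libraries, against 28.2 and 36.5 in control libraries (6.73 times lower), and its relative LCL1 was 2.94 times lower. Harvest hours are not given, so a difference in time of day cannot be told apart from the treatment. Of 19 autophagy members 0 were higher and 3 lower (15.8%, against 10.3% of all loci), with a median of -0.38, and 0 were lower without ion Al replicate 2 and 1 was higher without control replicate 1.

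**Figure D3:**
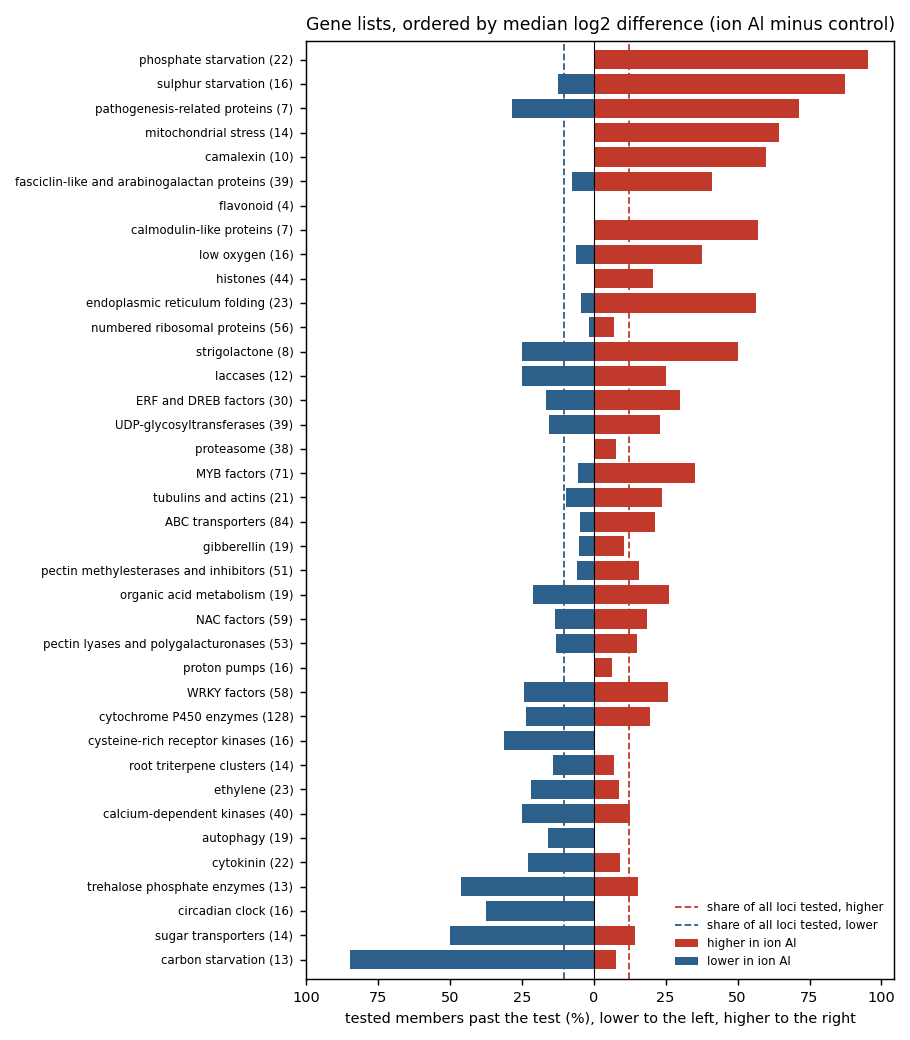
Share of tested members past the test in each of 38 lists, in percent, higher in ion Al to the right and lower to the left, with the number tested in brackets and lists ordered by median log2 difference. Dashed lines mark the share of all loci, 12.3% higher and 10.3% lower, and the phosphate list (95.5% higher) and the carbon starvation list (84.6% lower) stand at the ends.

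The largest single changes outside these lists were chosen by size. AT5G20790, an uncharacterised protein, had 291 and 367 RPKM in ion Al libraries, against 0.278 and 0.393 in control libraries (995-fold, log2 difference 7.94 ± 0.20, adjusted p = 1.79e-05). ARD3, an enzyme of methionine salvage, had 367 and 378 RPKM in ion Al libraries, against 1.81 and 0.748 (289-fold). HOL2, a methyltransferase, had 468 and 389 RPKM in ion Al libraries, against 2.04 and 0.419 (340.2-fold). At the other end, AT5G26130, a secreted protein of the CAP family, was listed at 0 and 0 RPKM in ion Al libraries, against 166 and 141 in control libraries, at least 683-fold lower. AIR1, an auxin-induced root protein, had 4.23 and 13.8 RPKM in ion Al libraries, against 989 and 555 in control libraries (83.1 times lower). Alanine:glyoxylate aminotransferase AGT was 56.5 times lower and UMAMIT17, of an amino acid transporter family, was 74.8 times lower. BT1, a BTB domain protein that nitrate induces, had 120.1 and 118 RPKM in ion Al libraries, against 1139 and 1523 in control libraries (11.1 times lower).

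Some called loci stood in runs along the chromosomes. In the order of 19485 tested loci along the chromosomes, 6 runs of at least 5 neighbours were all higher (40 loci) and 4 runs were all lower (20 loci). One run of 8 loci on chromosome 5, from AT5G52670 to AT5G52760, encodes small metal-binding proteins annotated as copper transport proteins. All 8 were higher because the search required it, and their median log2 difference was 3.88. Their summed reads were 3864 and 5376 in ion Al libraries, against 443 and 356 in control libraries. AT5G52700 had 45.7 and 61.5 RPKM in ion Al libraries, against 0.186 and 0.394 in control libraries (log2 difference 5.39 ± 0.26). AT5G52690 had 39.1 and 40.9 RPKM, against 0.259 and 0.274 (5.02 ± 0.22). AT5G52710, the member with the highest mean ion Al level, had 85.5 and 86.3 RPKM, against 10.98 and 10.9 (2.87 ± 0.16). Elsewhere in the genome 40 members of the family, chosen after values were seen, were tested, of which 9 were higher and 3 lower, with a median of 0.04. The run was picked for its higher calls and these 40 were not, so the medians of the run and of the 40 are not a like comparison. The neighbours are similar in sequence, so reads may be shared among them.

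**Figure D4:**
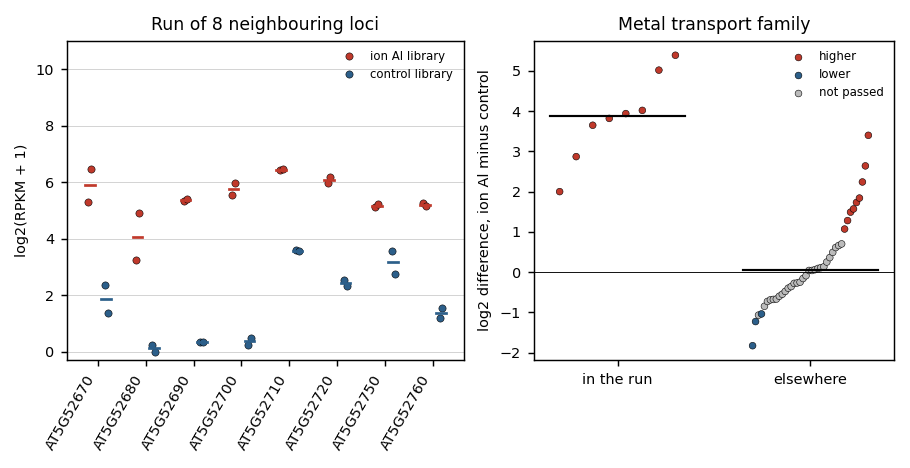
Left, levels on the log2(RPKM + 1) axis of 8 neighbouring metal-binding genes on chromosome 5, each point 1 library and each bar a group mean, with ion Al left of control. Right, log2 differences of the same 8 genes and of 40 family members elsewhere, with bars at the medians of 3.88 and 0.04. The 8 genes were found by a search for neighbours all called higher, and the 40 were not.

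A second run of 8 loci on chromosome 5, from GLP6 to GER2, encodes germin-like proteins, secreted cupins of the cell wall. All 8 were again higher because the search required it, and their median log2 difference was 3.46. Their summed reads were 5049 and 8839 in ion Al libraries, against 281 and 619 in control libraries. AT5G39120 had 327 and 456 RPKM in ion Al libraries, against 10.98 and 30.1 in control libraries (19.6-fold). GER2 had 71.7 and 153 RPKM in ion Al libraries, against 3.05 and 6.03 (25.7-fold). AT5G39180, another of the 8, lost its call without ion Al replicate 1 (log2 difference 2.97) and without ion Al replicate 2 (2.58). Germin copies are also near-identical, with the same limit. Among lower runs, 5 receptor-like kinase-related loci on chromosome 1, from AT1G63550 to AT1G63600, held 17 and 16 reads in ion Al libraries, against 356 and 261 in control libraries.

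A block of chromosome 1 was nearly silent in ion Al libraries. The search, set after values were seen, looked for runs of at least 4 neighbouring loci whose reads in one group were at most 5% of those in the other. It found 2 runs low in ion Al libraries, and both lay in the block from AT1G33813 to AT1G33930 (chr1:12273243-12327311, RefSeq TAIR10.1). The 14 loci of the block in the table held 16 and 10 reads in ion Al libraries, 2763 and 2835 in nAl2O3 libraries, and 2341 and 1877 in control libraries. Of the 14, 11 were at 0 in both ion Al libraries, and 13 had ion Al reads below control reads. The annotation gives the block several AIG1-type and other P-loop proteins, pseudogenes and AT1G33840, a LURP-one-like protein. AT1G33840 had 0 and 0 RPKM in ion Al libraries, 80.4 and 65.9 in nAl2O3 libraries, and 54.2 and 31.1 in control libraries, at least 264-fold lower in ion Al than in control. The nearest listed loci on either side, AT1G33811 and AT1G33960, held at most 2 reads in any library, so the edges of the block are not placed exactly. Farther out, AT1G33810 had 45.5 and 40.5 RPKM in ion Al libraries, against 41.5 and 47.5 in control libraries, and AT1G33970 had 14.6 and 19.2 RPKM, against 24.4 and 36.1. Genotype was not read in these data, so a difference in sequence between the plants of the groups and a difference in expression cannot be told apart at this block, and the cause was not tested.

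**Figure D5:**
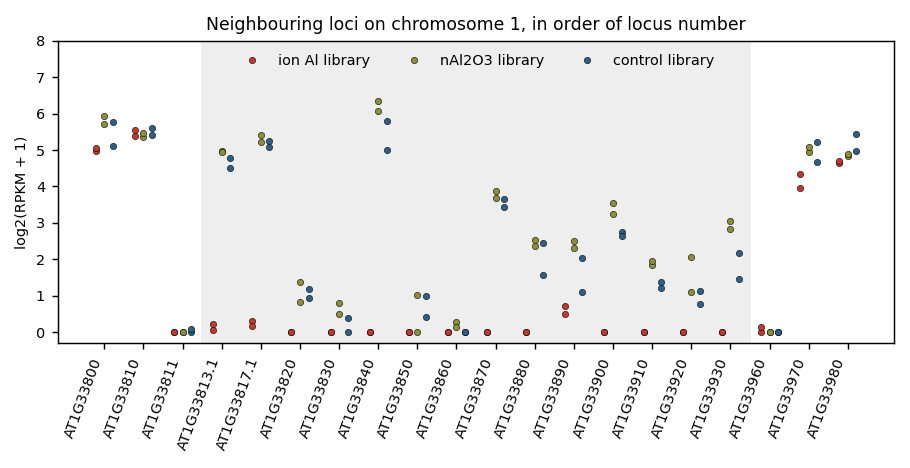
Levels on the log2(RPKM + 1) axis of 20 neighbouring loci on chromosome 1 in order of locus number, each point 1 library, with ion Al left, nAl2O3 in the middle and control right at each locus. In the shaded block of 14 loci the ion Al points lay at or near 0, and AT1G33800, AT1G33810, AT1G33970 and AT1G33980 outside it were read in all libraries.

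In the opposite direction, 2 runs were nearly silent in control libraries. One was the first 4 loci of the metal-binding run, with 3319 reads in ion Al libraries, 89 in nAl2O3 libraries and 52 in control libraries. The other, on chromosome 2 from AT2G30650 to AT2G30680, held 3009 reads in ion Al libraries, 48 in nAl2O3 libraries and 60 in control libraries. AT2G30660, annotated in a crotonase family, had 23.3 and 40.8 RPKM in ion Al libraries, against 1.98 and 0.157 in control libraries (29.9-fold). AT2G30670, with a Rossmann fold, had 40.7 and 117 RPKM in ion Al libraries, against 1.49 and 0 in control libraries (107-fold).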

How the data were processed

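RNA of Arabidopsis roots was sequenced in 6 libraries, 2 of each group, and the deposited table holds RPKM per locus, which the authors computed. TopHat2 2.0.12, HTSeq 0.6.0 and the build TAIR10 appear in the submitters' processing notes, with no role for each, and the labels' protocols name a NEBNext Ultra kit. Neither the strand nor the handling of multi-mapped reads is stated, and all columns of samples were mapped (0 left out).

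Low RPKM values were whole multiples of the value of 1 read, so library totals and reads were recovered. All 24438 loci came out whole within 1e-06 reads, and 266 were set to a multiple of their smallest step by a rule chosen after the sums were seen. A count of 3 reads per kilobase is worth 0.207 to 0.244 RPKM, and such floors cover counting error only.

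Testing used limma 3.58.1 (R 4.3.3). Values were log2(RPKM + 1), a pseudocount of 1, and all 3 groups entered 1 fit, with 3 residual and 3.81 prior degrees of freedom, a two-sided p and Benjamini-Hochberg adjustment over the 19648 loci tested. An adjusted p under 0.05 was called. The same steps were tested on simulated data. A fold divides the pooled reads of the ion Al libraries, relative to their totals, by those of the control libraries (the inverse where "times lower" is written), and is not on the tested scale. Where a group held 0 reads, a floor of 3 reads over the group gives "at least". Python 3.11.15, pandas 2.3.3 and matplotlib 3.10.9 did the rest, and 23678 loci (96.9%) matched RefSeq TAIR10.1.

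The members, 38 gene lists and 11 marker lists were chosen with earlier results of these data known. Named genes followed a rule: the 12 largest rises and falls with a mean of at least 5 RPKM in the higher group, the 10 largest gains and losses in RPKM, up to 4 members of each list with the lowest p and up to 3 with the highest level, loci at 0 in one group and at least 5 RPKM in both libraries of the other, and the 10 highest levels. Not every locus that the rule gave is named here, and no rule set which were left out. Genes named outside the rule were chosen after their values were seen. They are IRE1A, GER2, GLP6, the named loci of the metal-binding, germin, chromosome 1 and chromosome 2 runs, PAP17, CYP86B1, MYB41, MYB51, MYB53, ADH1, LAC2, LAC13, MGD3, SQD2, PLDZETA2, SPX2, PHT1;4, PHO2, PHR1, NLA, AT1G63010, GDH3, SWEET2, SWEET14, TPPB, TPPE, TPPI, ERO1, AOX1A, WRKY30, FLA13, MLS, DIN2, TPS5, ATTPS6, TPS7, MYB34, MYB92, MYB93, PAD3, FOX1, WRKY33, CYP71A13, D27, CCD7, SMXL8 and LEC1. Other pseudocounts, filters, scalings, fits, voom on recovered reads and each library left out in turn were tried.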

Additional observations from a re-analysis of the deposited data

How the results depend on the processing

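Both main counts, 2418 higher and 2028 lower loci, stayed within 1.5 times under other pseudocounts, filters and scalings, voom on recovered reads and the replicate block, at 1989 to 2507 higher and 1704 to 2357 lower. A fit of the ion Al and control libraries alone gave 1433 higher and 1325 lower. It had fewer degrees of freedom and left out the nAl2O3 libraries, whose replicates lay closer together. Estimated library weights gave 1534 higher and 1370 lower. These weights were 0.3843 for control, 0.9903 for ion Al and 2.627 for nAl2O3 libraries. The main counts thus rest partly on the spread of libraries outside the comparison. Leaving out 1 library at a time, with the tested loci kept, gave 886 to 4314 higher and 942 to 3418 lower. The cause of that spread was not tested. Higher loci were 54.4% of those called, 48% after median-of-ratios scaling and 46.7% after quantile normalization.

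Libraries that share a replicate number did not deviate together (correlation -0.164 between ion Al and control), and no label says what a number marks. With the replicate block 2029 loci were higher and 1704 lower. A crossed replicate block, chosen after seeing the data, gave 2452 and 1998.

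Of 142 named loci that were followed, 128 were called, and 122 of these kept the call in all 17 other settings that tested them. The other 6 were IRE1A, TDT, AT5G39180, MYB34, MYB41 and CYP79B2, and IRE1A also lost it in the fit of 2 groups (-0.87). AT1G33810, not called, had log2 differences of -0.14 to 0.05 over the left-out libraries. Among lists, the phosphate, sulphur, sugar transporter, trehalose phosphate and xylem counts moved by no more than 1.5 times when any library was left out. Other list counts that moved by over 1.5 times, beside those in the report, included the P450 higher count (14 at a filter of 5 RPKM), the NAC higher and WRKY lower counts (4 and 7 with library weights), the ribosomal higher count (12 with voom) and the clock lower count (3 with no filter). A 1 kilobase locus under 0.207 RPKM rests on fewer than 3 reads in any library.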
